A study of Mus musculus with 2 samples.

Results

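Among 2948 bone marrow cells that held fewer than 4 transcripts of mitotic genes, 295 cells had the largest share of transcripts from genes of DNA replication. They are called S phase gene-rich cells here. Each cell was first required to have at least 500 unique molecular identifiers (UMIs, 1 per captured transcript) and at most 20% of them from mitochondrially encoded genes. Cells with 4 or more UMIs over 12 mitotic genes were then left out, and within each library the top 10% by the share of UMIs from 11 S phase genes were taken. These genes were Mcm2, Mcm3, Mcm4, Mcm5, Mcm6, Mcm7, Pcna, Ung, Cdt1, Tyms and Dut. The choice gave 140 of 1399 cells in aliquot 1 and 155 of 1549 in aliquot 2. The comparison was with the 2653 other kept cells and, for position in the cell cycle, with the 454 cells that the mitotic limit left out, called mitotic-rich cells.

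All cells came from 1 pool of lineage-depleted mouse bone marrow, loaded as 2 aliquots on the inDrops droplet platform. The pool combined live GFP+ cells of Mds1-GFP/+ Flt3-Cre mice, sorted on GFP alone, with LT-HSCs (long-term blood stem cells) of wild type mice, sorted as Lin-, cKit+, Sca+, CD48- and CD150+. Flt3-Cre is active where the Flt3 gene has been expressed, and the GFP cassette is flanked by loxP sites, so a cell in which Cre has acted loses the reporter. The labels give neither the number nor the age of the mice, the pool mixes genotypes, and a cell without a reporter UMI cannot be assigned to either source. With 1 pool, n = 1: no test between cell sets was possible, and the aliquots show only technical spread. All intervals below are 95% intervals and cover counting error only.

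A cell that leaves quiescence loads the MCM helicase (Mcm2 to Mcm7) onto replication origins with the help of Cdt1, then starts replication under cyclin-dependent kinases. The E2F transcription factors switch on genes for the helicase, the polymerase clamp Pcna and the enzymes that make nucleotides. A later set, with the mitotic cyclins and spindle proteins, is switched on towards G2 and M phase. Long-term stem cells of adult marrow are mostly quiescent, and cells that cycle often are more frequent among progenitors.

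Some of the S phase genes hold a promoter motif that the choice of cells did not use, and the sequences show where it lies. E2F factors bind motifs of the kind TTTNNCGC. In the windows from RefSeq (build GRCm38.p6, 300 bases, of which 250 lie before the start), searched on both strands, overlapping matches included, this motif occurred in 6 of 11 promoters of the 10 matched S phase genes, 54.5%. It occurred in 5.17% of all 32851 promoters. Entirely before the start it was found in 3 of the 11, a promoter each of Mcm5, Mcm6 and Mcm7. The promoters of Mcm2, Mcm3, Pcna, Ung, Cdt1, Tyms and Dut and another promoter of Mcm7 held no match there. Some genes outside the rule were searched in the same way. Tk1 and E2f1, both high in the members as given below, held no match before the start. Uhrf1, also high, and Procr, which was low, did. The stretches below lie before a RefSeq transcription start, with the matches in capitals. A run of capitals longer than the motif holds 2 overlapping matches, 1 on each strand.
Mcm5 (chr8:75109336-75109387, plus strand): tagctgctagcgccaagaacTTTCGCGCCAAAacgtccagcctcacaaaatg
Mcm6 (chr1:128359725-128359835, minus strand): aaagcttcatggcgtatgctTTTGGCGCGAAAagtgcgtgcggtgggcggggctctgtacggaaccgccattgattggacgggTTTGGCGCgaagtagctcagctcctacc
Mcm7 (chr5:138172021-138172068, minus strand): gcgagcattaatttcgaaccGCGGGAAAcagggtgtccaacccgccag
The Mcm6 stretch holds 3 matches, and the last ends 39 bases before the start. In Mcm5 and Mcm7 the last match ends 141 and 157 bases before it. The Mcm7 stretch precedes only 1 of the RefSeq starts of that gene. It lies within the gene as GENCODE places it (chr5:138164583-138172422).

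The motif was also more frequent in promoters of genes that were high in the S phase gene-rich cells and had no part in choosing them. Of 409 promoters of such genes (at least 1.5-fold higher, as defined below), 18.1% held TTTNNCGC, against 9.19% of 3384 promoters of measured genes that differed by less and 6.63% of 588 promoters of genes at least 1.5-fold lower. In 5 lists of replication genes (licensing, fork, nucleotide, chromatin and repair) 29.7% of 111 promoters held it, and in the LT-HSC list 3.70% of 27. Promoters of the mitotic genes had another composition: TTTGAA, the core of the cell cycle homology region, occurred in 70.0% of 10, against 9.09% of the S phase promoters and 17.9% of all. The CCAAT box occurred in 80.0% of the mitotic, 63.6% of the S phase and 37.4% of all promoters. A match is a description of these letters, not a bound site.

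In aliquot 1 the members drew between 0.591% and 1.47% of their UMIs from the 11 genes, with a median of 0.759%. In aliquot 2 the range was 0.486% to 1.41% and the median 0.634%. The medians of the other kept cells were 0.0990% and 0.0683%, and 42.7% and 31.5% of those cells had no UMI of any of the 11 genes. No gap marks the threshold: the last cells inside were at 0.591% and 0.486%, and the first outside at 0.591% and 0.485%. The members are thus the upper end of a range, and not a separate cluster. A typical member carried 12 UMIs (3 to 44) from 6 distinct S phase genes (2 to 11).

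**Figure D1:**
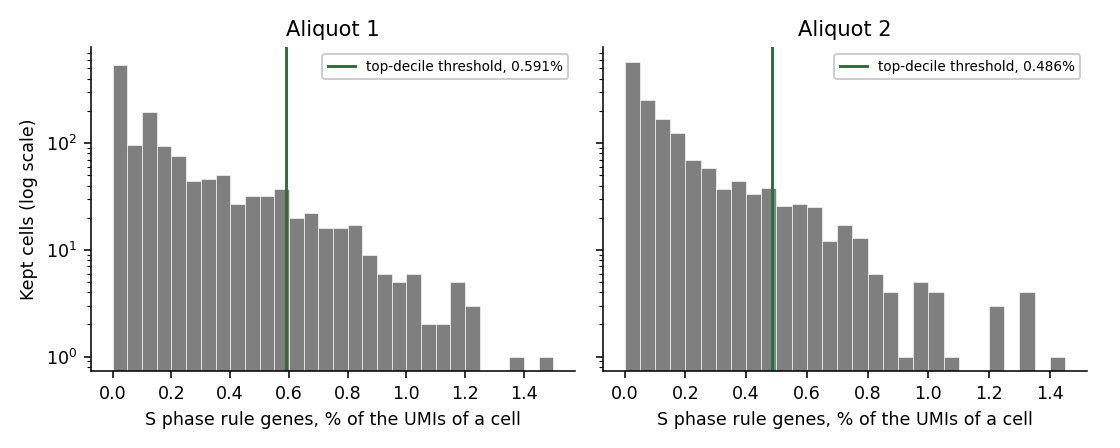
Number of kept cells (log scale) by the share of their UMIs from the 11 S phase genes, in bins of 0.05 percentage points, for each aliquot. The green line is the top-decile threshold, 0.591% in aliquot 1 and 0.486% in aliquot 2, and the counts decline through it without a break.

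S phase gene-rich cells were deeper than the other kept cells, with a median of 1621 UMIs against 1239 (1261.5 against 881 in aliquot 1, 2521 against 1959.5 in aliquot 2). Their median mitochondrial share was 4.64% against 5.17%. The aliquots shared 461 barcodes, 40 among kept cells and 2 among the members, and cells that share a barcode were counted separately. Doublets were kept, and of 25 cells that the doublet caller Scrublet marked (0.572% and 0.875% of the cells) 1 was a member. Barcodes with fewer than 200 UMIs were taken as a guide to RNA free in the suspension, though what they hold was not tested. In aliquot 2, 6291 such barcodes had Mcm6 at 479 CPM (UMIs of the gene scaled to a total of 1e+06). That level was above the 302 CPM of the other kept cells and below the 1514 CPM of the members. Ung was at 68.5 CPM in such barcodes, against 28.2 and 525 CPM. In aliquot 1 the 201 such barcodes had Mcm6 at 264 CPM (114 to 520), from only 8 UMIs. How much of the S phase UMIs of the other kept cells is free RNA was not tested. Those UMIs are therefore not taken as expression by a given cell.

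The label of mitotic-free cells did not hold exactly. Only 148 of the 295 S phase gene-rich cells, 50.2%, had no UMI of the 12 mitotic genes, while 80, 40 and 27 had 1, 2 and 3. Among the other kept cells 73.3% had none. Summed over the 12 genes the members had 440 CPM, the other kept cells 254 CPM and the mitotic-rich cells 4500 CPM. The excess lay mostly in 3 proliferation genes. Mki67, a marker of cycling cells, was at 45.6 against 9.71 CPM (ratio 4.70, 2.72 to 7.98), Top2a, the topoisomerase that untangles replicated DNA, at 126 against 34.5 CPM (3.65, 2.69 to 4.91), and Cdk1, the mitotic kinase, at 67.5 against 25.8 CPM (2.61, 1.74 to 3.85). Cenpf, at 87.6 against 88.2 CPM, and Tpx2, at 34.7 against 39.6 CPM, did not follow. The other genes had few UMIs in the members: 3 for Ube2c, of the anaphase-promoting machinery, and 6 to 8 for each of the remaining 6. Of those 6, Ccna2 had a ratio of 4.39 (1.58 to 11.4) and Nusap1 3.57 (1.22 to 9.45). Cdc20 at 2.38, Birc5 at 2.14, Ccnb1 at 1.95 and Ccnb2 at 0.840 had intervals that include 1. These 12 genes helped choose the cells, so their values are a description.

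The 11 S phase genes together were at 7119 CPM in the members and 1337 CPM in the other kept cells, a ratio of 5.32 that the choice itself fixed. Ung, the uracil-DNA glycosylase that removes uracil from new DNA (chr5:114130386-114139323, plus strand), stood apart among them. It was at 463 and 525 CPM in the 2 aliquots of the members and at 45.7 and 28.2 CPM in those of the other kept cells, a ratio of 15.1. Ung UMIs came from 113 of 295 members. With each cell thinned to 500 UMIs, so that depth was equal, 19.3% of the members, 1.17% of the other kept cells and 4.85% of the mitotic-rich cells had an Ung UMI (38.3%, 3.47% and 11.5% before thinning). The other 10 genes lay between 4.00 for Pcna and 7.10 for Mcm5. Mcm6 was the most abundant, with 2002 and 1514 CPM in the members, and gave 23.5% of all S phase UMIs there. Compared with the other kept cells, the members' S phase UMIs held a larger part from Ung, 7.10% against 2.50%, and a smaller part from Pcna, 6.07% against 8.09%, and from Dut, the dUTPase that keeps uracil out of DNA, 10.1% against 12.4%.

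Because choosing on a count inflates that count, each cell's UMIs were divided at random into 2 parts of about equal size, the top decile was chosen in one and the genes were read in the other. In the unused UMIs the 11 genes together were 3.77-fold higher (3.54 to 4.01), and 20 other random divisions gave 3.63 to 3.92. Ung was again highest, at 7.45 (5.65 to 9.84), and Pcna lowest, at 2.76 (2.13 to 3.53). Of the cells so chosen 217 were also among the 295. Choosing by some genes and reading others gave the same direction. Cells chosen by the 6 Mcm genes alone (233 shared with the 295) had the other 5 genes 3.26-fold higher together (2.998 to 3.55), with Ung at 5.48, Cdt1, the licensing factor, at 4.33, Tyms, the thymidylate synthase, at 3.96, Dut at 2.65 and Pcna at 2.57. Cells chosen by those 5 genes (170 shared) had the Mcm genes 2.91-fold higher (2.76 to 3.08), from 2.71 for Mcm6 to 4.16 for Mcm5. All 11 genes were higher in UMIs that had no part in the choice.

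Genes with at least 200 UMIs over all kept cells were counted as higher at a CPM ratio of at least 1.5 and as lower at 1/1.5 or less. Of 4409 such genes 411 were higher in the S phase gene-rich cells, 9.32%, and 579 were lower, 13.1%, and the median log2 ratio of all was -0.03. The first count depends on depth: with the other kept cells weighted to the members' UMI distribution it was 245, and the second 419. These counts include genes of the rule, and all genes of the same cells were open to the choice, so the ratios below describe the cells and are no test.

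The genes at the top of the ranking belong to replication and its control. Tk1, the thymidine kinase of the nucleotide salvage route (chr11:117815526-117826092), was at 252 and 316 CPM in the members of aliquots 1 and 2 and at 54.2 and 26.0 CPM in the other kept cells. The ratio was 8.56 (6.77 to 10.8), with 4.65 in aliquot 1 and 12.2 in aliquot 2. 2810417H13Rik, now named Pclaf, whose product binds the clamp Pcna, was at 240 and 268 CPM against 38.1 and 29.3 CPM, a ratio of 8.11 (6.33 to 10.4). In both genes each aliquot of the members lay above each aliquot of the other kept cells.

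Regulators followed closely. Uhrf1, which brings the maintenance DNA methyltransferase to new DNA, had a ratio of 5.79 (4.64 to 7.22). E2f1 (chr2:154559407-154569892), an activator of S phase genes and itself a target of E2F, had 154 and 182 CPM in the members against 35.5 and 27.8 CPM, a ratio of 5.75 (4.34 to 7.59). Dtl, a subunit of the ubiquitin ligase that destroys Cdt1 during S phase, had a ratio of 4.76. Others among the 15 highest were Fignl1, a homologous recombination factor, Zfp367, the fork protection factor Tipin, the ribonucleotide reductase subunit Rrm1, the nuclear envelope gene Nrm, the DNA ligase Lig1, the histone methyltransferase Ezh2, the single-strand DNA binding subunit Rpa2 and the histone chaperone Nasp. Their ratios ran from 4.33 for Fignl1 to 3.34 for Nasp.

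Origin licensing and firing genes outside the rule were higher in 6 of 7 measured members of the list, with a median log2 ratio of 1.03 (0.82 with the other cells weighted by depth). Tipin was at 149 and 169 CPM against 49.9 and 36.3 CPM, a ratio of 4.02 (3.07 to 5.25). Topbp1, which activates the checkpoint kinase and helps origins fire, had a ratio of 2.17, Mcmbp, an MCM-binding protein, 2.15, and Gins4, of the helicase complex, 2.04. Orc5, of the origin recognition complex, had a ratio of 1.51 that rested on aliquot 2: the ratios were 0.741 and 2.11. Dbf4, the activating subunit of the kinase that fires origins, was at 89.4 against 83.8 CPM and was not counted as higher. The other origin recognition genes and Cdc6 were too rare to measure.

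Polymerase and replication fork genes were higher in 12 of 16 measured members and lower in none, with a median log2 ratio of 1.17. Under the alternative settings described below that median ran from 0.63 to 1.42. Lig1, which joins Okazaki fragments, was at 149 and 155 CPM against 58.4 and 34.4 CPM, a ratio of 3.68 (2.79 to 4.81). Fen1, the flap nuclease that prepares those fragments, had a ratio of 3.25 (2.58 to 4.06). Single-strand DNA binding genes Rpa2 and Rpa1 had ratios of 3.41 and 2.66, and the clamp loader genes Rfc2 and Rfc1 ratios of 1.80 and 1.72. Pola1, the catalytic subunit of the priming polymerase, had a ratio of 1.52. Top1, the topoisomerase that also serves transcription, was at 144 against 192 CPM, with a ratio of 0.752 (0.588 to 0.949). The fork genes thus ranged over a factor of several, with the Okazaki fragment genes high and Top1 below 1.

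Of the nucleotide synthesis genes 14 of 20 measured were higher and none lower, with a median log2 ratio of 0.85 (0.56 to 1.04 under the alternative settings). Genes whose products act on deoxynucleotides led the list. After Tk1 came Rrm1 at 3.82 (3.15 to 4.62), Dctpp1, a pyrophosphatase that clears deoxynucleotides, at 2.88, and Dtymk, the thymidylate kinase, at 2.20. Genes of purine synthesis, which also feeds RNA, were closer to 1. Gart was at 2.09, Paics at 1.80, Impdh2 at 1.37, Atic at 1.24 and Adss at 0.915 (0.704 to 1.17).

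Among G1 to S regulators 6 of 9 measured genes were higher and none lower. Ccnd1, the cyclin D1 gene that answers growth signals, was at 229 and 150 CPM against 77.0 and 54.9 CPM, a ratio of 2.84 (2.22 to 3.62). Its partners Cdk6 and Cdk4 had ratios of 1.77 and 1.71, and Cdk2, the S phase kinase, 1.73. The D cyclins did not move alike: Ccnd3 had a ratio of 1.40 and Ccnd2, the most abundant of the 3, was at 713 against 859 CPM, a ratio of 0.831 (0.746 to 0.923). CDK inhibitor and pocket protein genes were lower in 3 of 4 measured members, with a median log2 ratio of -0.95 (-0.63 with the other cells weighted by depth, and -0.26 with no minimum of UMIs). Cdkn1c, the p57 inhibitor that marks quiescent stem cells, was at 17.2 and 24.1 CPM against 76.2 and 61.5 CPM, a ratio of 0.332 (0.169 to 0.590). Cdkn1b, the p27 inhibitor, had a ratio of 0.531, with 0.307 in aliquot 1 and 0.636 in aliquot 2. With the other cells weighted by depth it was 0.727, and among cells without any mitotic UMI 0.772, neither a lower call. The pocket protein gene Rbl2 had 0.506.

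Chromatin assembly and maintenance genes were higher in 11 of 15 measured members and lower in none. The median log2 ratio was 1.11 (0.75 to 1.22 under the alternative settings). Ezh2, of Polycomb complex 2, was at 234 and 196 CPM against 73.6 and 50.5 CPM, a ratio of 3.62 (2.86 to 4.55). Nasp had 3.34, Dnmt1, the maintenance DNA methyltransferase, 3.15 (2.70 to 3.66), the lamin gene Lmnb1 2.93, Slbp, which binds histone mRNA, 2.90, and the variant histone gene H2afz 2.19. Replication stress and repair genes were higher in 3 of 4, with Usp1 at 2.63, Brca2 at 2.48 and the mismatch repair gene Msh6 at 2.44. Cohesin genes stayed near the other kept cells: 1 of 7 was higher, Smc3 at 1.60, with 1.104 in aliquot 1 and 1.87 in aliquot 2.

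Genes linked to G2 and M phase but outside the rule were higher in 7 of 8 measured members, although the cells had been limited in mitotic UMIs. The higher ones were Smc2 at 3.32, Cks1b, which binds the cyclin-dependent kinases, at 3.27, the condensin gene Ncapd2 at 2.65, Hmgb2 at 2.01, Smc4 at 1.74, Cks2 at 1.66 and Tubb4b at 1.51. The list median of 0.90 ran from 0.33 to 1.19 under the alternative settings. Smc2 and Cks1b stayed above 1.5 there. The lowest ratios were 1.32 for Ncapd2, 1.16 for Hmgb2, 1.08 for Smc4, 0.850 for Cks2 and 1.19 for Tubb4b. Several of these products act on chromosomes already in S phase. The remaining 36 of the 44 genes of the list, such as Plk1 and Aurka, were too rare in kept cells to measure. Genes of the MYC family and ribosome biogenesis were higher in 10 of 20, with a median log2 ratio of 0.55 that was 0.28 with the other cells weighted by depth. Nop58 and Fbl, of the ribosomal RNA methylation complex, had ratios of 1.73 and 1.72. The nucleolar genes Ncl and Npm1 had 1.27 and 1.21. Myc was at 341 against 284 CPM (1.20, 1.02 to 1.40), whereas Mycn was at 179 against 286 CPM (0.626, 0.504 to 0.770).

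**Figure D2:**
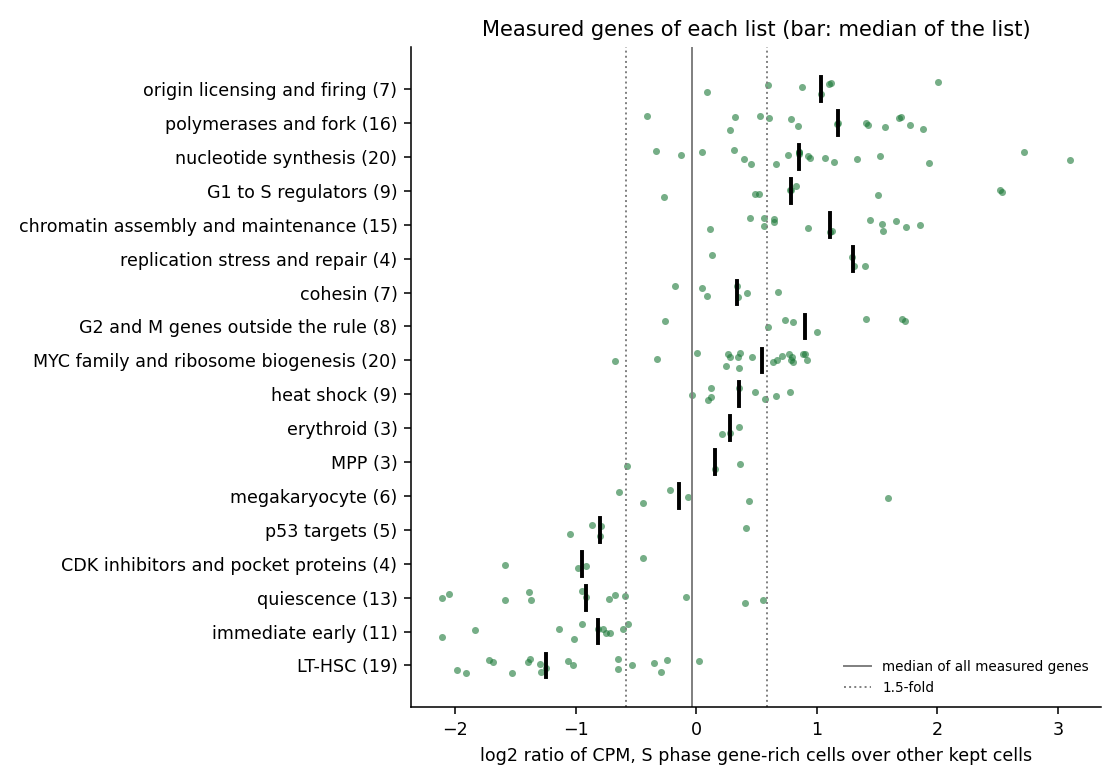
Each point is a gene with at least 200 UMIs over all kept cells, placed at its log2 ratio of CPM between the S phase gene-rich cells and the other kept cells, by list with the number of genes in brackets. Black bars are list medians, the solid line is the median of all measured genes (-0.03) and dotted lines are 1.5-fold, and the replication lists lie to the right and the LT-HSC, immediate early and quiescence lists to the left.

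Stem cell genes were lower in the S phase gene-rich cells. Of 19 measured genes of the LT-HSC list 14 were lower and none higher, with a median log2 ratio of -1.25 (-0.87 with the other cells weighted by depth). Together the list was at 4821 and 4361 CPM in the members of aliquots 1 and 2, and at 8874 and 7899 CPM in the other kept cells. Procr (chr2:155751117-155755471), the surface receptor EPCR of long-term stem cells, was at 68.6 and 37.5 CPM against 178 and 193 CPM, a ratio of 0.252 (0.163 to 0.372). Mllt3, a factor that maintains stem cells, was at 74.3 and 53.6 CPM against 238 and 221 CPM, a ratio of 0.266 (0.182 to 0.377). In both genes each aliquot of the members lay below each aliquot of the other kept cells. Cells were also thinned to equal depth, as for Ung. A Procr UMI was then found in 4.75% (2.62 to 7.83%) of members and 9.31% (8.23 to 10.5%) of other kept cells. For Mllt3 the shares were 2.37% (0.959 to 4.83%) and 10.4% (9.30 to 11.7%). The Procr shares thus differed less than its CPM.

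The list was not lower throughout. Ifitm1 had a ratio of 0.407, Txnip, a brake on glucose uptake, 0.420, Hlf, a stem cell transcription factor, 0.478 and Ly6a, which encodes Sca-1, 0.492. Angpt1, the niche ligand angiopoietin-1, had 0.784 and Gata2 0.816 (0.700 to 0.947), and neither was counted as lower. Meis1 was at 367 against 361 CPM, a ratio of 1.01 (0.871 to 1.18). Mecom, the locus that carries the reporter in the mutant mice and named here for that reason after its values were seen, was at 63.9 against 166 CPM, a ratio of 0.385 (0.266 to 0.541). The sort on cKit read the product of Kit, which encodes the receptor of stem cell factor. Kit, likewise chosen after its values were seen, was at 609 against 735 CPM, a ratio of 0.829. The lower level thus covered part of the stem cell genes, and the receptor gene Kit and the factor Meis1 were within 1.5-fold.

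Quiescence genes were lower in 10 of 13 measured members and immediate early genes in 10 of 11, with median log2 ratios of -0.91 and -0.82. Ccng2, the cyclin G2 gene of resting cells, was at 11.4 and 29.5 CPM against 103 and 96.0 CPM, a ratio of 0.242 (0.127 to 0.418). Egr1, an early growth response factor that both lists hold, was at 91.5 and 61.6 CPM against 355 and 286 CPM, a ratio of 0.232 (0.164 to 0.319). Klf6 had a ratio of 0.386, Zfp36, which destabilises mRNA, 0.453, Junb 0.519, Foxo3 0.518, Ier2 0.567 and Fos 0.657. In the quiescence list 2 of the 13 measured genes lay above 1. Tcf3, of that list, had ratios from 1.27 to 1.59 under the alternative settings described below. Jun, the most abundant of the immediate early genes, was at 571 against 846 CPM, a ratio of 0.675 just short of a lower call. Immediate early genes also respond to tissue dissociation and sorting, and the part of handling in their levels was not tested. The p53 target list was lower in 4 of 5, from 0.483 for Trp53inp1 to 0.577 for Mdm2, with Bax at 1.33 (0.912 to 1.90). That list depended on the aliquot, with median log2 ratios of -0.12 and -0.73.

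The 10 lowest genes of the ranking were Hist1h1c, Egr1, Ccng2, Procr, Fam43a, Mllt3, Mettl7a1, Hbp1, Ier3 and Pik3r1. Hist1h1c (chr13:23738808-23740367), a linker histone gene, was lowest at 28.6 and 13.4 CPM against 114 and 87.9 CPM, a ratio of 0.190 (0.0905 to 0.354). Mettl7a1 was the most abundant, at 109 and 107 CPM against 381 and 409 CPM, a ratio of 0.269. Hbp1, a repressor of cell cycle genes, had 0.278, and Pik3r1, the regulatory subunit of PI3-kinase, 0.292. Barcodes with fewer than 200 UMIs in aliquot 2 had Procr at 226 CPM and Mllt3 at 198 CPM, close to the other kept cells and above the 37.5 and 53.6 CPM of the members. In aliquot 1 such barcodes had Procr at 66.0 CPM (7.99 to 238) and Mllt3 at 264 CPM (114 to 520), from 2 and 8 UMIs. The part of free RNA in the levels of these genes was not tested.

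Few lineage genes could be measured. None of the 3 measured progenitor genes was called, and their median log2 ratio was 0.16, or -0.11 with the other cells weighted by depth. Cd34 had a ratio of 1.12 (0.941 to 1.32), Plac8 1.28 and Cd27 0.673. In the erythroid list all 3 measured genes lay above 1 and none was called, with Car2, an abundant carbonic anhydrase, at 1.16 (1.08 to 1.24). Itga2b, the CD41 integrin of megakaryocytes and of a part of stem and progenitor cells, was at 320 and 246 CPM against 112 and 80.2 CPM, a ratio of 3.01 (2.47 to 3.66), while Fli1 was at 0.738 and Vwf at 0.641 (0.389 to 1.00). Pf4, a platelet chemokine, had a ratio of 1.35 without a stable direction, with 0.947 and 1.57 in the aliquots, 0.741 with the other cells weighted by depth and 3.49 among cells without any mitotic UMI. All 7 measured granulocyte genes were lower, but these counts came from few cells. Cells with at least 2% of their UMIs from granulocyte and basophil or mast cell genes numbered 0 of 295 members, 25 of 2653 other kept cells and 23 of 454 mitotic-rich cells. Without them the median log2 ratio of the granulocyte list was -0.22, Lyz2 had a ratio of 1.09 and S100a8 1.22. Prss34, a basophil protease, had no UMI in the members and 372 in the other kept cells. Heat shock genes were called higher in 2 of 9, Hspd1 at 1.71 among them, and none of the 11 measured mitochondrially encoded genes was called.

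Every kept cell was thinned to 500 UMIs, and the cells were ordered by how many S phase UMIs they then held. Depth was thus equal for this count only. There were 1630 cells with 0, 636 with 1, 323 with 2, 159 with 3, 97 with 4 and 103 with 5 or more, of which 92 were members. The cells of these steps still differed in depth, with medians of 1190, 1302, 1442, 1259, 1422 and 1632 UMIs. The mix of aliquots 1 and 2 also changed, from 733 and 897 cells at 0 to 100 and 59 at 3. The LT-HSC list, read from all UMIs of the same cells, was at 8942, 7645, 6045, 5009, 4610 and 4770 CPM over these steps. Most of its decline came before 4 S phase UMIs, and the last 2 steps overlap in their counting intervals. The polymerase and fork list was at 1473 CPM in the first step and 3120 CPM in the last, and nucleotide synthesis at 1987 and 4710 CPM.

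Single genes had their own course over these steps. Procr was at 215, 190, 88.9, 64.8, 52.9 and 22.01 CPM, and Mllt3 at 243, 210, 173, 130, 70.6 and 33.0 CPM. Both were lower at every step with the aliquots pooled, but not in each aliquot. Procr was at 54.9 CPM with 2 S phase UMIs and 113 CPM with 3 in aliquot 1, and at 22.7 CPM with 3 and 49.8 CPM with 4 in aliquot 2. Mllt3 was at 57.4 and 79.2 CPM in the last steps of aliquot 1. The last step rests on 4 UMIs of Procr and 6 of Mllt3. Ung, one of the genes counted for the steps, was at 12.5 CPM in the first and 556 CPM in the last. Tk1, which was not counted, went from 11.6 to 297 CPM and E2f1 from 19.8 to 204 CPM. Kit stayed between 547 and 750 CPM and Cd34 between 258 and 341 CPM. The ribosome biogenesis list went from 4548 to 6410 CPM, a smaller change than that of the replication lists.

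**Figure D3:**
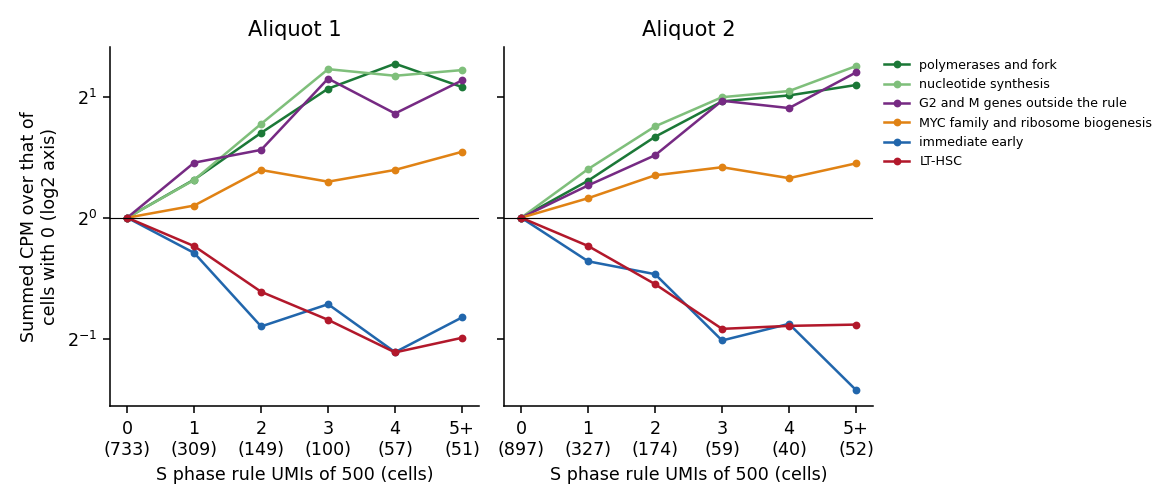
Summed CPM of 6 gene lists, divided by the value in cells with no S phase UMI (log2 axis), against the number of S phase UMIs among 500 drawn from each kept cell, per aliquot, with the number of cells in brackets. In both aliquots the replication lists climb above 1 and the LT-HSC and immediate early lists sink below it, and the immediate early list differs between the aliquots in the last step.

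Set against the 454 mitotic-rich cells, the S phase gene-rich cells were higher in some genes of the cycle and lower in others. The mitotic-rich cells had a median of 2395.5 UMIs, and 116 of them, 25.6% (21.6 to 29.8%, Clopper-Pearson), also reached the S phase threshold of their aliquot. Of 1685 measured genes 56 were higher in the members, 3.32%, and 124 were lower, 7.36%. Ung was at 505 CPM in the members and 118 CPM in the mitotic-rich cells, a ratio of 4.27 (3.48 to 5.26). The 6 Mcm genes had ratios from 1.76 for Mcm7 to 2.43 for Mcm2. The choice of the members inflated these ratios, since the mitotic-rich cells were not chosen on the same genes. Unused UMIs take out only the counting error of the choice. The members so read are still a top decile on these genes and the mitotic-rich cells are not, so ratios above 1 there are no test. In UMIs that had no part in the choice, divided as above, Ung was at 3.14 (2.33 to 4.27), and 20 other divisions gave 2.54 to 5.08. The Mcm genes then lay between 1.42 for Mcm7 (1.20 to 1.68) and 2.06 for Mcm2 (1.67 to 2.55), and Pcna, at 1.14, and Dut, at 1.07, had intervals that include 1. Among genes outside the rule E2f1 had 2.65 (1.95 to 3.62), Rpa2 1.79 and Ccnd1, with 96 and 53 UMIs, 3.99 (2.82 to 5.69). Cdca7, a target of MYC and E2F chosen after its values were seen, had 2.53 (1.97 to 3.26).

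Other replication genes were at or above their level in the members among the mitotic-rich cells. Tk1 was at 443 CPM there, so that the ratio was 0.667 (0.556 to 0.797), and Pclaf at 573 CPM, a ratio of 0.452. Rrm1 had 0.713 and Tyms, with 57 and 140 UMIs, 0.897 (0.647 to 1.23), or 0.716 (0.438 to 1.13) in unused UMIs. Fen1 and Ezh2 had 0.817 and 0.955, both with intervals that include 1. All 19 measured G2 and M genes outside the rule were lower in the members, with a median log2 ratio of -2.37, among them Hmgb2 at 0.254 and Cks2 at 0.194. That direction was largely set by the choice, since the mitotic-rich cells were taken for their mitotic UMIs. Measured here meant at least 200 UMIs over the members and the mitotic-rich cells. The list had 1459 UMIs in the former and 13032 in the latter. Polymerase and fork genes as a list were near even, with a median log2 ratio of 0.15. These are levels in cell sets, and no time in the cycle was measured.

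Stem cell genes set the members less apart from the mitotic-rich cells than from the other kept cells. The LT-HSC list was at 4508 CPM in the members and 3573 CPM in the mitotic-rich cells, and 2 of 9 measured genes were higher and none lower. Ifitm1 had a ratio of 1.78 (1.46 to 2.15). Procr, at 47.4 and 54.6 CPM, and Mllt3, at 60.2 and 55.5 CPM, had ratios of 0.868 and 1.09 whose intervals include 1. The quiescence list was at 878 CPM in the members, 1569 CPM in the other kept cells and 1056 CPM in the mitotic-rich cells. Ccng2, one of its genes, was at 23.7 CPM in the members, 98.2 CPM in the other kept cells and 147 CPM in the mitotic-rich cells. In both, the members were lowest of the 3 sets.

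**Figure D4:**
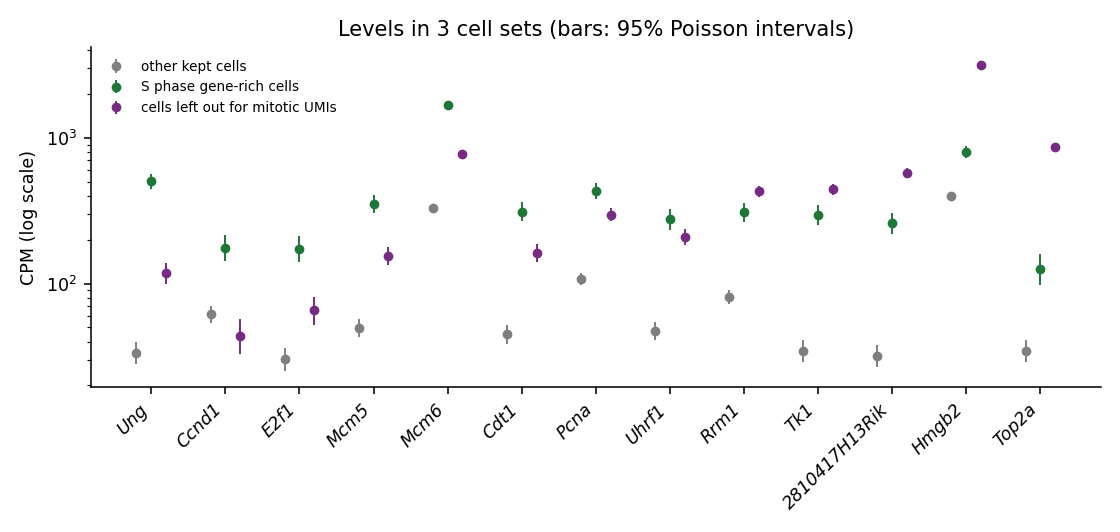
CPM (log scale) of 13 genes in the other kept cells (grey), the S phase gene-rich cells (green) and the mitotic-rich cells (purple), with 95% Poisson intervals. Ccnd1 and E2f1 are highest in the green set, as are Ung and Mcm genes, which helped choose it, and Tk1, 2810417H13Rik (Pclaf), Hmgb2 and Top2a in the purple set.

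Within the S phase gene-rich cells the split by mitotic UMIs was followed by some genes and not by others. The 147 cells with 1 to 3 mitotic UMIs (median 1939 UMIs) were compared with the 148 that had none (median 1330.5 UMIs), and deeper cells have more chances of a mitotic UMI, so depth and the split cannot be told apart. All these cells had passed the same threshold on the S phase genes, so like levels of those genes were largely set by the choice. Mcm6 was at 1667 and 1672 CPM (ratio 0.997, 0.873 to 1.14), Mcm5 at 348 and 357 CPM (0.974), Cdt1 at 313 and 311 CPM (1.01) and Ung at 511 and 498 CPM (1.03, 0.804 to 1.31). For a reading in UMIs that had no part in the choice, the members were chosen anew in the other part of the UMIs. This gave 134 cells with 1 to 3 mitotic UMIs and 161 with none, which are not the same cells as above. There the 11 genes together were not even: cells with 1 to 3 mitotic UMIs were at a ratio of 1.26 (1.14 to 1.39), and 20 other divisions gave 1.09 to 1.34. Depth was not matched in this reading either. Mcm6 was then at 1.33 (1.07 to 1.653) and Ung at 1.26 (0.840 to 1.89).

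Several genes outside the rule had larger ratios. Rrm2, the regulated subunit of ribonucleotide reductase and added here after its values were seen, was at 179 and 34.0 CPM, a ratio of 5.25 (2.49 to 12.8). Pclaf was at 377 and 102 CPM, a ratio of 3.69 (2.36 to 5.99) with 3.31 and 3.95 in the aliquots. Smc2 had 2.83 (1.64 to 5.15), Ncapd2 2.66, Tk1 2.45 (1.69 to 3.62), Slbp 1.68 and Hmgb2 1.63. Cks1b had 2.03, but 1.23 (0.708 to 2.16) in aliquot 1 and 3.54 in aliquot 2. In aliquot 1 alone the intervals of Smc2 (0.869 to 4.73) and Slbp (0.759 to 2.38) also include 1. Dtl had 1.97 but 0.707 in aliquot 1 and 4.66 in aliquot 2, so its direction rests on aliquot 2.

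On the other side were Ifitm1, at 259 and 485 CPM with a ratio of 0.533 (0.396 to 0.715), Mycn at 0.612 (0.401 to 0.928) and Ccnd2 at 0.702 (0.573 to 0.861). Fos had 0.485, from 1.098 in aliquot 1 and 0.328 in aliquot 2. Hlf and Meis1 had ratios of 0.869 and 1.14 with intervals that include 1. Cells without any mitotic UMI thus had less of Pclaf, Rrm2 and Tk1.

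**Figure D5:**
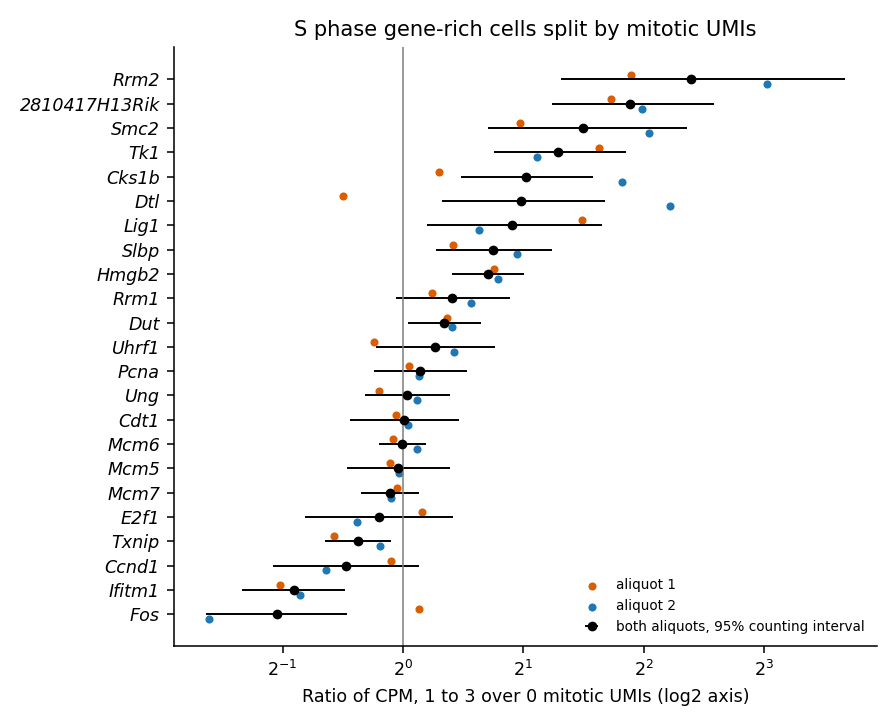
Ratio of CPM (log2 axis) of 23 genes between S phase gene-rich cells with 1 to 3 mitotic UMIs and those with 0, for both aliquots together with 95% counting intervals (black) and for each aliquot (coloured). Rrm2, 2810417H13Rik (Pclaf), Smc2 and Tk1 lie to the right, and the levels of the S phase genes that chose the cells, such as Mcm6 at 0.997, were largely set by that choice.

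Reporter transcripts were rare in all 3 sets of cells. A GFP UMI was found in 6 of 295 members, 2.03% (0.750 to 4.37%, Clopper-Pearson), in 56 of 2653 other kept cells, 2.11% (1.60 to 2.73%), and in 9 of 454 mitotic-rich cells, 1.98% (0.910 to 3.73%). The interval of the members holds those of both other sets, so no difference was detectable with this number of cells. The series text states 46 GFP cells after processing, by a filter it does not describe.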

How the data were processed

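The deposited files hold whole-number UMI counts per barcode and gene for 28205 genes and a GFP feature, not normalized. Bowtie 1.1.1, RSEM 1.3.0, SAMtools 1.3.1 and the build GRCm38 are listed in the submitters' processing notes; their roles, the annotation and the use of strand are not given in the sources used here. Aliquot 1 held 2147 barcodes and 1801787 UMIs, and aliquot 2 held 8662 barcodes and 4726601 UMIs. The members held 548138 UMIs, the other kept cells 3912130 and the mitotic-rich cells 1207799. Aliquots carry the labels' numbers, which the barcode counts match.

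UMIs of a gene were added up within a set of cells and scaled to CPM, without the GFP feature. CPM intervals are exact Poisson, ratio intervals exact conditional binomial and shares Clopper-Pearson, all at 95%. The ratio and splitting calculations were tested on simulated data. The members, the 25 gene lists and the alternatives were chosen with earlier results of these data known. Named genes are all rule genes, up to 8 of each list by UMIs, and the 15 highest and 10 lowest ratios with UMIs in at least 10 members and 1 direction in both aliquots. Any other gene is marked where it is named, and a few genes within the rule are not reported here. Promoters are from RefSeq, and positions of genes from GENCODE vM21, both of GRCm38. Tk1, Cdt1, Mcm7, Lig1, Fen1, Ccnd1, Hbp1 and 2810417H13Rik overlap another coding gene. Other named genes do as well, among them Cdk2, Cdk4, Ccnd3, Paics, Impdh2, Rbl2, Junb, Msh6, Rfc2, Hspd1, Cd27, Tubb4b and Bax. H2afz and Npm1 have pseudogene copies. The counts of all these genes are less certain. Scrublet was run with an expected rate of 6%. Alternatives changed depth, filters, thresholds, weighting and the choice of UMIs. Python 3.11.15 was used with scanpy 1.11.5, matplotlib 3.10.9, pandas 2.3.3, scipy 1.17.1 and numpy 2.4.6.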

Additional observations from a re-analysis of the deposited data

How the results depend on the processing

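The 411 higher and 579 lower genes became 245 and 419 with the other cells weighted to the members' depth. They became 738 and 1152 (of 7038) at a minimum of 100 UMIs, and 3896 and 9633 (of 21661) with no minimum. Leaving out 1 aliquot gave 475 to 520 higher and 693 to 807 lower genes. The replicate block, a ratio stratified by aliquot, gave 407 and 581 and changed no direction. The 3.77-fold ratio of the S phase genes in unused UMIs was 3.26 and 2.91 when cells were chosen by some genes and read by others. Of 3058 alternative ratios of 170 named genes 379 moved beyond their interval without reversing and 8 reversed: Cks2 to 0.850 with no limit on mitotic UMIs, Pola1 to 0.987 in the top 5%, Orc5 to 0.741 without aliquot 2 (2.11 without aliquot 1) and to 0.972 in the unused UMIs, Timeless to 0.994 and Vwf to 1.04 in those UMIs, and Lyz2 to 1.09 and S100a8 to 1.22 without granulocyte-marker cells, an alternative added after seeing the data, as were the readings of unused UMIs other than the 3.77-fold ratio. The cause was not tested. Of 380 alternative list medians 107 moved, and the medians of the progenitor and megakaryocyte lists, both near 0, changed sign under some of them. Depth limits rare genes: most origin recognition, spindle and lineage genes had fewer than 200 UMIs.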

Other observations

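Some histone genes, chosen after their values were seen and not from a list, differed in the S phase gene-rich cells. The libraries were made from polyadenylated RNA, and the bulk of replication-dependent histone mRNA carries no polyA tail, so these values concern the polyadenylated forms only. Of the variant genes H2afz was at 998 against 456 CPM (ratio 2.19, 1.98 to 2.41) and H2afj at 144 against 71.6 CPM (2.01, 1.55 to 2.59), while H2afx, at 74.8 against 50.6 CPM (1.48, 1.03 to 2.08), was not called higher. The linker gene H1f0, known from resting and differentiated cells, was at 108 against 255 CPM (0.421, 0.318 to 0.548). Hist1h1c, Hist1h2bc and Hist3h2a, cluster genes seen here in polyadenylated form, had ratios of 0.190, 0.294 and 0.290, and all 3 were lower in both aliquots.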
